A study of Mus musculus with 6 samples.

Results

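The genes described are 34 genes of glycolysis and of the response to low oxygen, measured in primordial germ cells made in culture from mouse embryonic stem cells with and without knockdown of Dazl. They were chosen by name, as 2 glucose transporters, 15 enzymes of glycolysis, 3 enzymes that set the fate of pyruvate, 4 hypoxia factors and oxygen sensors, and 10 other genes known to respond to hypoxia. All 34 were found, among 20220 genes tested, on 61 probe designs, of which 58 passed the filter on dim probes. All 34 passed it through signal well above background on all 6 arrays, and no member spot was saturated.

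All samples came from male ES cells of mixed C57BL/6 and 129SV strain that carry an Oct4-GFP transgene, in which GFP marks cells that express Oct4. The cells also carried a tdTomato vector, either a control vector or 1 of 2 short hairpin RNAs against Dazl, called hairpin 1 and hairpin 2. They were differentiated for 9 or 12 days off their feeder cells, and cells positive for both colours were sorted, so that the controls went through the same sort and carry the same reporters. Each vector has 1 array per day, which gives 2 control and 4 knockdown arrays. The labels do not say that samples came from separate cultures, so every p-value measures the spread between these 6 samples, which may be technical.

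Glycolysis splits glucose into pyruvate through a chain of enzymes, and lactate dehydrogenase turns pyruvate into lactate where it does not enter the mitochondria. HIF1A and EPAS1 (HIF2A) are transcription factors that prolyl hydroxylases such as EGLN1 and EGLN3 mark for destruction when oxygen is present. In low oxygen they pair with ARNT, bind hypoxia response elements with a short core motif, and raise transcription of glucose transporters, glycolytic enzymes and genes such as Vegfa. HIF activity is set mainly at the protein level, which an array does not measure. Pluripotent cells rely strongly on glycolysis, and primordial germ cells are known for a metabolism that shifts as they form.

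The core letters of that element were searched in RefSeq promoter windows of build GRCm38.p6. A window holds 250 bases before and 50 after a start, of which a gene can have several. At least 1 window was found for 30 of the 34 members. ACGTG, on either strand, stood in 54.3% of the 46 member windows and in 19.6% of all 32851 windows. By gene, 21 of the 30 had a match. Windows of a gene can overlap and share a match, and the windows compared were not matched for base content. The members were picked by name, partly as known hypoxia targets, and the shares were not tested. GCGTG stood in 54.3% and 32.4% of them. CACGTG, which contains ACGTG on both strands and is also the E-box of other factors, stood in 10.9% and 7.15%. A match is a description of letters and not a site. The stretches below are shown because their genes carry the values described next, or, for Ldha and Pgk1, because they are textbook hypoxia targets. Each is on the strand of its gene and lies wholly before the start that its window was drawn on. Every ACGTG or its reverse complement is in capitals. The stretches of Ankrd37, Hif1a and Ldha lie inside the annotated gene, before an inner start.
Ankrd37 (chr8:45999851-46000100, minus strand): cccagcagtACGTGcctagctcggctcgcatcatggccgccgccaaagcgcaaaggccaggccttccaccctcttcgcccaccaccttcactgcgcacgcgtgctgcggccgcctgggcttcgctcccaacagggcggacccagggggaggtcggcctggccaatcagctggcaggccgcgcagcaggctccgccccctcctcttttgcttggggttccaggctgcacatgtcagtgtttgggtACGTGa
Pfkm (chr15:98092438-98092473, plus strand): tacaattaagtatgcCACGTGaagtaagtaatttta
Hif1a (chr12:73907717-73907816, plus strand): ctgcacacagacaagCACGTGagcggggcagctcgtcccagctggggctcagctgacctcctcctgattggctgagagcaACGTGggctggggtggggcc
Egln1 (chr8:124949303-124949337, minus strand): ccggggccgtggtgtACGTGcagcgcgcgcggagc
Slc2a1 (chr4:119108694-119108728, plus strand): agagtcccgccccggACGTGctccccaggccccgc
Ldha (chr7:46845644-46845789, plus strand): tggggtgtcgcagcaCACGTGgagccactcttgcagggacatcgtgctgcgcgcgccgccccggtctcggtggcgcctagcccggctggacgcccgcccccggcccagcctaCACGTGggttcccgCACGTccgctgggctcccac
Pgk1 (chrX:106186935-106186988, plus strand): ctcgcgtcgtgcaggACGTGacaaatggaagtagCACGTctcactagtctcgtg
Ldha, Hif1a and Pfkm hold CACGTG, where 1 run of capitals counts as a match on each strand. Of the other members described next, Aldoc, Eno2, Adm, Eno1, Pfkl and Pfkp, among others, had a window and no ACGTG match before a start. Epas1, Ndrg1, Slc2a3 and Bnip3l had no window. Matching stretches of further members, among them Hk2, Pfkfb3 and Vegfa, are not shown.

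Dazl itself checked the labels. Its log2 value, relative to the 75th percentile of the array, was 1.32 and 2.58 in the control arrays of day 9 and day 12. It was -3.05 and -2.24 on the arrays of hairpin 1 and -2.28 and -1.84 on those of hairpin 2. The fitted difference was -4.30 (SE 0.28, limma, adjusted p = 0.0848), so that even Dazl did not pass the threshold of 0.05 over all genes in this design. Each day had a slide of its own, and a vector kept its position from slide to slide. Day therefore cannot be told apart from slide, nor vector from position. The array of hairpin 2 at day 9 stood apart. The median absolute deviation of its values from each gene's median over the 6 arrays was 0.243 over all genes against 0.105 to 0.152 on the other arrays, and 0.232 against 0.0474 to 0.133 over the members. The 2 brightest probes of a gene also disagreed most on it, by a median of 0.293 against 0.0763 to 0.135 over 6932 genes. Many of the named member values that moved by over 1.5 times without it are given without it too. Of the 12 germ cell markers listed, 11 were measured, Dazl among them, and all 11 were well above background on every array. So were all measured markers of endothelium, blood, neural cells, trophectoderm and heart muscle, so this does not set germ cells apart. On the linear scale the 11 summed to 74.9 to 80.1 in control and 76.8 to 85.9 in knockdown arrays, with the 75th percentile as 1. Of them 4 had a positive fitted knockdown difference. Pou5f1 had 0.69 and Dppa3 -0.62.

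**Figure D1:**
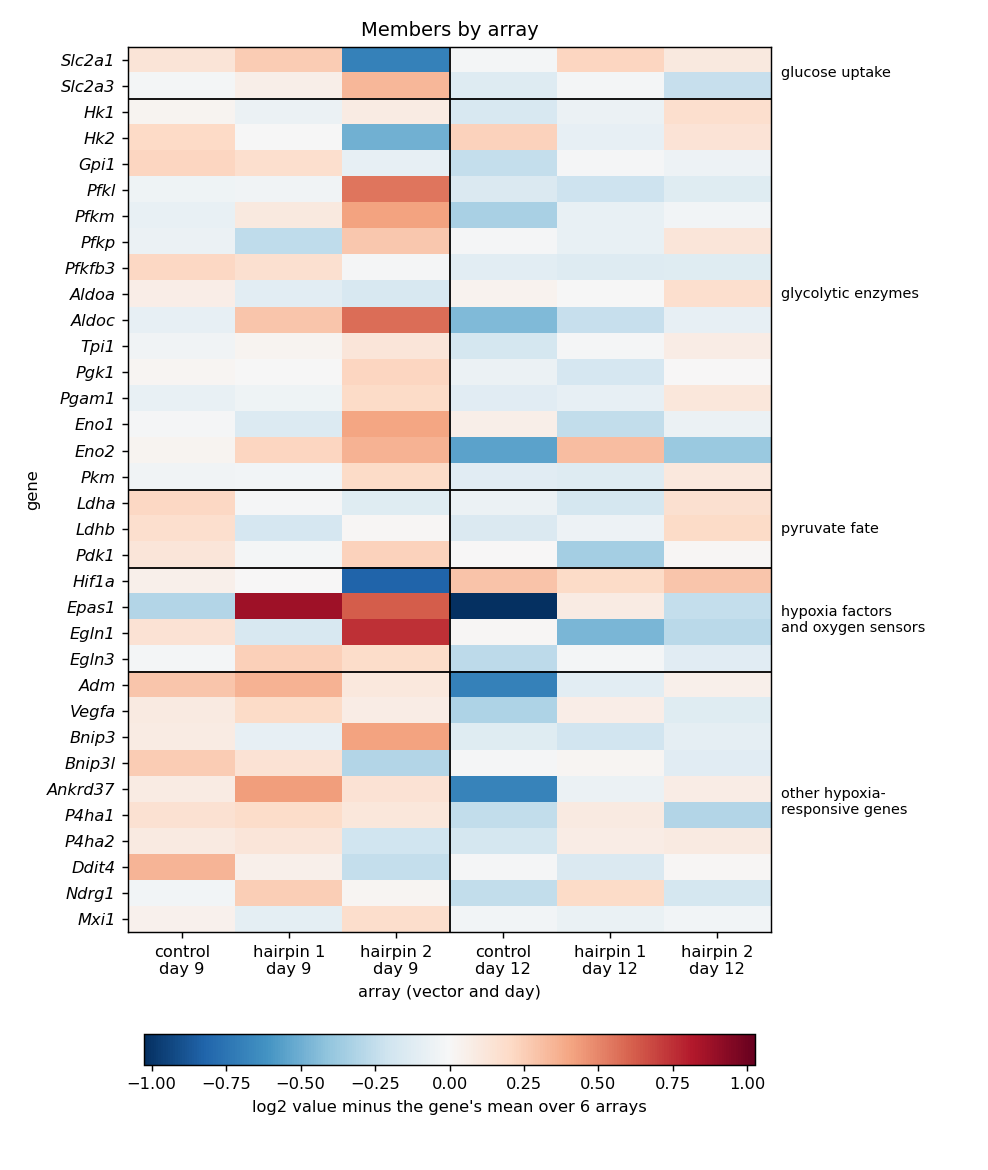
Log2 value of each of the 34 members on each of the 6 arrays, minus the mean of that gene, by role; the vertical line separates day 9 from day 12. The deviations are largest for Epas1, and the hairpin 2 array of day 9 holds the lowest Hif1a and Slc2a1 and the highest Egln1 and Aldoc.

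Across arrays the 75th percentile of the signal ran from 629 to 746, and 70.3% to 73.3% of probes were well above background. Each member is shown by its brightest probe, and most of these were bright. For 30 of the 34, the signal was above the 75th percentile on all 6 arrays, which describes the probe and is no measure of RNA per cell. Taking the brightest probe can only raise that count, and the percentile is over all probes, dim ones included. No share over all genes was taken for this count or for the spans that follow. The 6 values of a gene spanned under 0.5 log2 units for 13 members and over 1 unit for 6, which were Epas1, Egln1, Hif1a, Ankrd37, Adm and Aldoc. In these sorted samples, fewer cells of a type and less RNA per cell cannot be told apart.

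No member passed the adjusted threshold between knockdown and control, and 0% of all genes did by limma with Benjamini-Hochberg adjustment. At an unadjusted p under 0.05, 3 members passed (Epas1, Aldoc and Ankrd37), against 9.95% of all genes. The median difference over the members was 0.06, and -0.003 over all genes. With normexp background correction those medians were 0.01 and 0.11, so that the members then lay below the median gene. Of the 34 members, 9 were higher in all 4 pairs of a knockdown array with the control of its day, where 16.2% of all genes were, and 3 were lower in all 4, where 17.2% of all genes were. Without hairpin 2 of day 9, 13 members were higher in all 3 other pairs, against 27% of genes, and 5 were lower, against 26.9%. With the vector as a replicate block 0.0989% of all genes passed and no member did. That fit leaves the spread between the hairpins out of its error. Without hairpin 2 of day 9 no member passed either, and 0% of genes did.

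Epas1, the factor with the largest difference, measured -1.62 in the day 9 control, -0.46 and -0.71 with hairpins 1 and 2 at day 9, -2.35 in the day 12 control, and -1.24 and -1.58 with the hairpins at day 12. All 4 knockdown arrays lay above both controls. The fitted knockdown difference was 0.99 (SE 0.16, 95% interval 0.59 to 1.39), which is 1.99-fold, and its adjusted p was 0.191. It was 1.04 without hairpin 2 of day 9 (adjusted p = 0.155). The adjusted p with the vector as a block, which leaves out the spread between hairpins, was 0.0858. With the mean of the gene's probes in place of the brightest the difference was 0.59 (adjusted p = 0.433). The value rests on 1 probe, A_52_P293443, designed on a cDNA entry. A second probe, A_51_P307954, designed on the RefSeq transcript, was dim and measured -6.22, -5.74 and -5.17 at day 9 and -6.20, -6.32 and -6.82 at day 12, each in the order control, hairpin 1, hairpin 2. On it the hairpins were above the control at day 9 and below it at day 12, and the fitted difference was 0.20 (SE 0.33).

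Hif1a, which like Epas1 encodes a factor that pairs with ARNT, measured 0.93, 0.88 and 0.06 at day 9. At day 12 it measured 1.17, 1.08 and 1.16, each in the order control, hairpin 1, hairpin 2. Its knockdown difference was -0.26 (SE 0.26, adjusted p = 0.792). It was -0.05 without hairpin 2 of day 9 and also -0.05 without the day 9 control, and -0.40 without hairpin 1 of day 9 and -0.46 without the day 12 control. Egln1, the main prolyl hydroxylase of HIF, measured 0.56, 0.24 and 1.15 at day 9 and 0.42, -0.06 and 0.13 at day 12. The Egln1 difference was -0.12 (SE 0.29) with all arrays and -0.35 without hairpin 2 of day 9. Egln3, a hydroxylase that is itself a hypoxia target, was higher in all 4 pairs, with a difference of 0.22 (SE 0.13, adjusted p = 0.627).

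Among the hypoxia-responsive genes Ankrd37, a HIF target whose protein carries ankyrin repeats, measured 2.52, 2.87 and 2.58 at day 9 and 1.75, 2.37 and 2.51 at day 12. The hairpins lay above the control on each day, closely so for hairpin 2 at day 9. The difference was 0.45 (SE 0.18, adjusted p = 0.491). It was 0.20 without the day 12 control and 0.69 without the day 9 control, so its size depended on which control was kept. Adm, which encodes the vessel-dilating peptide adrenomedullin, measured -0.54, -0.47 and -0.71 at day 9 and -1.51, -0.93 and -0.77 at day 12, with a difference of 0.31 (SE 0.21). Ndrg1, a stress-responsive gene, was higher in all 4 pairs by a fitted 0.21 (SE 0.17). Vegfa, the endothelial growth factor, had 0.17 (SE 0.15). The other 6 of this group (Bnip3, Bnip3l, P4ha1, P4ha2, Ddit4 and Mxi1) lay between -0.25 and 0.07, and Ddit4, the lowest, was -0.16 without hairpin 2 of day 9.

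Of the 15 glycolytic enzymes, 11 had a positive fitted knockdown difference and 4 a negative one, with a median of 0.10. Aldoc, the aldolase isoform typical of brain, measured 3.49, 3.85 and 4.15 at day 9 and 3.12, 3.34 and 3.49 at day 12. Both hairpins lay above the control on each day, and the difference was 0.40 (SE 0.16, adjusted p = 0.481), or 0.32 without hairpin 2 of day 9. Eno2, the neuronal enolase, measured -0.21, -0.02 and 0.12 at day 9 and -0.79, 0.07 and -0.62 at day 12, with a difference of 0.39 (SE 0.22). That difference was 0.22 without hairpin 1 of day 12 and 0.26 without the control of that day. Pfkm, the muscle isoform of phosphofructokinase, measured 3.78, 3.96 and 4.27 at day 9 and 3.53, 3.79 and 3.83 at day 12, with a difference of 0.31 (SE 0.15). Tpi1, which interconverts the triose phosphates, and Pgam1, which acts further down the chain, were higher in all 4 pairs by a fitted 0.16 and 0.14. The enzymes not named here or next (Hk1, Gpi1, Pfkl, Pfkp, Aldoa, Pgk1, Eno1 and Pkm) lay between -0.08 for Aldoa and 0.14 for Pfkl, each smaller than its error. Without hairpin 2 of day 9, Aldoa was -0.05, Pfkl -0.01 and Pgam1 0.09, and the lowest of the 8 was Eno1, at -0.17.

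Hk2, a hexokinase that commits glucose to the cell, measured 5.51, 5.30 and 4.81 at day 9 and 5.54, 5.22 and 5.45 at day 12. All 4 knockdown arrays lay below both controls, and the difference was -0.33 (SE 0.19, adjusted p = 0.621), or -0.21 without hairpin 2 of day 9 and also -0.21 without the control of that day. Pfkfb3, which makes the activator of phosphofructokinase, was lower in all 4 pairs, with 3.07, 3.01 and 2.84 at day 9 and 2.74, 2.72 and 2.73 at day 12. Its difference of -0.08 (SE 0.14) was smaller than its error. It was -0.04 without hairpin 2 of day 9, and leaving out 1 array at a time took it to between -0.14 and -0.02. The enzymes that turn pyruvate were near 0, with -0.11 (95% interval -0.53 to 0.30) for Ldha, -0.01 for Ldhb and -0.10 for Pdk1, the kinase that holds pyruvate out of the mitochondria. The glucose transporters Slc2a1 and Slc2a3 had -0.08 (SE 0.29) and 0.11 (SE 0.16). Leaving out hairpin 2 of day 9 gave 0.16 and 0.03 for these, -0.06 for Ldha and -0.16 for Pdk1. A second, dimmer probe of Slc2a3 was lower in all 4 pairs, with a fitted difference of -0.39 (SE 0.14).

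**Figure D2:**
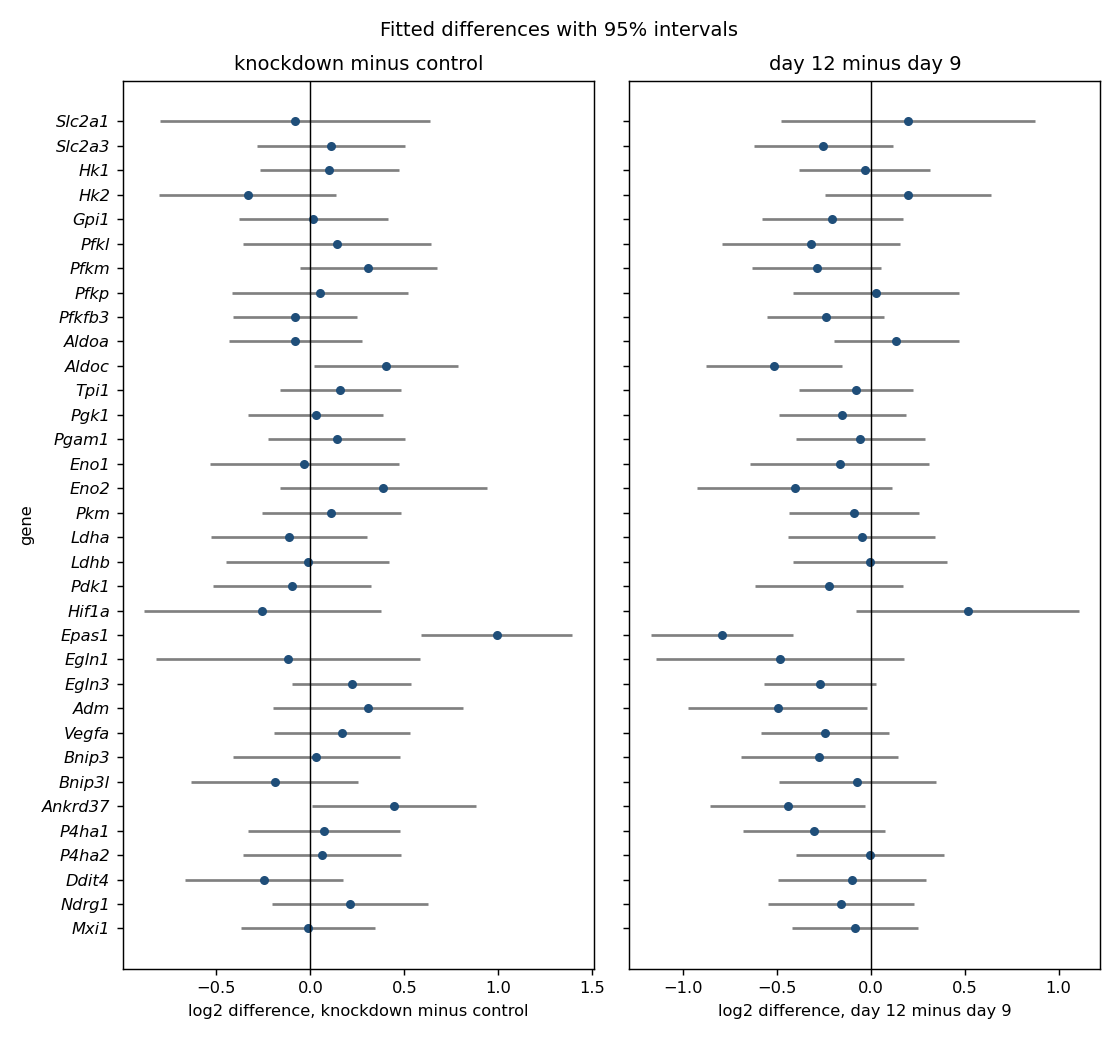
Fitted log2 difference of each member with its 95% interval, for knockdown minus control on the left and day 12 minus day 9 on the right. On the left the intervals of Epas1, Ankrd37 and Aldoc lie above 0 before adjustment, and no member passed after it.

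Markers of 7 other cell types were summed on the linear scale, with the 75th percentile as 1. The sum of 8 endoderm markers was 0.982 to 1.05 in the control arrays and 1.80 to 2.63 in the knockdown arrays, and all 8 had a positive fitted difference. The sum of 4 neural markers was 2.19 to 2.43 and 3.52 to 4.17, where 3 of 4 were positive. Stmn2 had 1.60, and Pax6, the negative one, -0.21. For 5 heart muscle markers the sum was 2.58 to 3.18 and 3.19 to 5.37, so that the ranges nearly touch, and 3 of 5 were positive. The brightest of these, Myl7, had 0.50, while Tnnt2 (-0.39) and Myh6 (-0.58) were lower in all 4 pairs. The sum of 3 blood markers was lower with knockdown, at 0.338 to 0.351 in control and 0.229 to 0.274 in knockdown arrays, where 1 of 3 was positive. Gata1 had -1.17, Hba-a1 -0.01 and Tal1 0.49, so the lower sum followed Gata1. The arrays overlapped for 9 fibroblast markers (2.14 to 5.47 and 3.52 to 8.05, all 9 positive), 5 endothelium markers (2.20 to 2.82 and 2.43 to 4.26) and 4 trophectoderm markers (18.8 to 21.4 and 12.7 to 33.3). None of these markers passed the adjusted threshold, and their part in the values of Epas1, Aldoc, Eno2 and the other members was not tested.

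Between day 9 and day 12 no member passed the adjusted threshold, and 0.148% of all genes did. At an unadjusted p under 0.05, 4 members passed (Epas1, Aldoc, Adm and Ankrd37), against 12.1% of all genes. With the vector as a replicate block 1.62% of genes passed and no member did, and without hairpin 2 of day 9 0% of genes did. The fitted difference was negative for 29 of the 34 members, with a median of -0.16 where that of all genes was 0.002. At day 12, 19 members were lower for all 3 vectors, against 19.7% of all genes, and 1 was higher, against 20.5%. Leaving out hairpin 2, 25 were lower for both other vectors, against 36% of genes, and 2 were higher, against 31.6%.

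How the members stood against the median gene depended on the background correction. With normexp correction of the raw spot signals, the median of all genes itself moved to -0.12 and that of the members was -0.08, which is above it, and 24 of 34 members still had a negative difference. Relative to the median gene, 16 of 34 members were then lower in the fit, and 6 were lower for all 3 vectors, where 21.6% of all genes were. With the percentile scaling those numbers were 29 and 20, where 20.9% of genes were, and with quantile normalization 27 and 14, where 21.4% were. With the authors' table the medians were -0.19 over the members and -0.05 over all genes. Under normexp alone of these 4 scalings did the members' median lie above that of all genes, and in none of them can day be separated from slide.

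**Figure D3:**
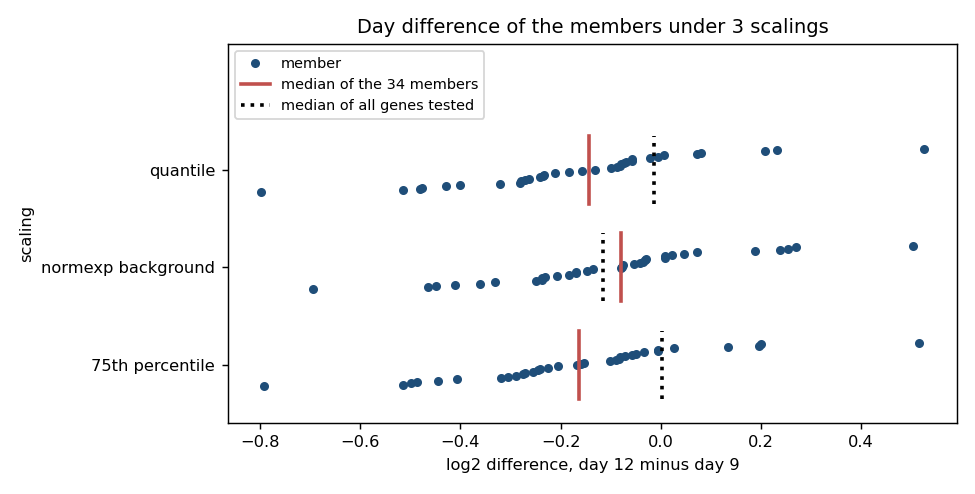
Fitted log2 difference between day 12 and day 9 for each member (points) under 3 scalings, with the median of the members (solid line) and of all genes tested (dotted line). The members' median lies below that of all genes under percentile and quantile scaling and above it with normexp correction.

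By single members, Epas1 had the largest day difference, at -0.79 (SE 0.15, adjusted p = 0.130). From day 9 to day 12 its control went from -1.62 to -2.35, hairpin 1 from -0.46 to -1.24 and hairpin 2 from -0.71 to -1.58, so each vector was lower at day 12 although the days overlap. The adjusted p with the vector as a block was 0.0538, and without hairpin 2 of day 9 the difference was -0.86. Aldoc had -0.52 (SE 0.15, adjusted p = 0.255), Adm -0.50 (SE 0.19), Egln1 -0.49 (SE 0.27) and Ankrd37 -0.44 (SE 0.17). Egln1 was -0.18 without hairpin 2 of day 9, and without either control Adm was -0.26 and Ankrd37 -0.28. Hif1a was the 1 member higher for all 3 vectors, with 0.52 (SE 0.24, adjusted p = 0.479), and 0.24 without hairpin 2 of day 9.

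For 10 members all 3 arrays of day 12 lay below all 3 of day 9, where 8.19% of all genes did (Slc2a3, Pfkl, Pfkfb3, Aldoc, Egln3, Adm, Vegfa, Bnip3, Ankrd37 and P4ha1), and for 1, Hif1a, above, where 8.92% did. The gap was over 0.05 log2 units for 3 of the 10, which were Pfkl, Pfkfb3 and Adm. The count of 10 was 8 with the percentile taken over spots, and 4 with normexp and 4 with quantile values. Vegfa also differed between its probes. Its brightest probe, A_52_P638895, had -0.24 between the days, and A_51_P482552, which is printed in 10 spots, had 0.20.

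Between hairpin 2 and hairpin 1 no member passed, and 0.00989% of all genes did, while 0 members and 11.6% of genes had an unadjusted p under 0.05. With hairpin 2, 15 members were higher on both days, against 31.8% of genes, and 8 were lower, against 27%. Egln1 differed by 0.55 (SE 0.25), Pfkp, the platelet isoform of phosphofructokinase, by 0.37 (SE 0.17), and Eno1, the common enolase, by 0.37 (SE 0.19). Slc2a1, the main glucose transporter GLUT1, differed by -0.54 (SE 0.27), Ndrg1 by -0.31 and Epas1 by -0.29. Without hairpin 2 of day 9 these differences were 0.15 for Egln1, 0.24 for Pfkp, 0.15 for Eno1 and -0.09 for Slc2a1. Without hairpin 2 of day 12 they were 0.95 for Egln1, 0.59 for Eno1 and -0.98 for Slc2a1. With the mean of the gene's probes Pfkp turned to -0.10 and Epas1 was -0.13. On its brightest probe Pfkp measured 3.002, 2.80 and 3.34 at day 9 and 3.05, 2.98 and 3.19 at day 12, so that hairpin 2 was highest on both days. Its other kept probes differed by -0.17 and -0.51 between the hairpins. Eno1 measured 3.25, 3.12 and 3.67, then 3.32, 3.01 and 3.20. Slc2a1 measured 7.42, 7.55 and 6.60, then 7.27, 7.51 and 7.39, and its low value is again that of hairpin 2 at day 9. Ndrg1 measured 4.28, 4.55 and 4.32, then 4.05, 4.50 and 4.12.

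**Figure D4:**
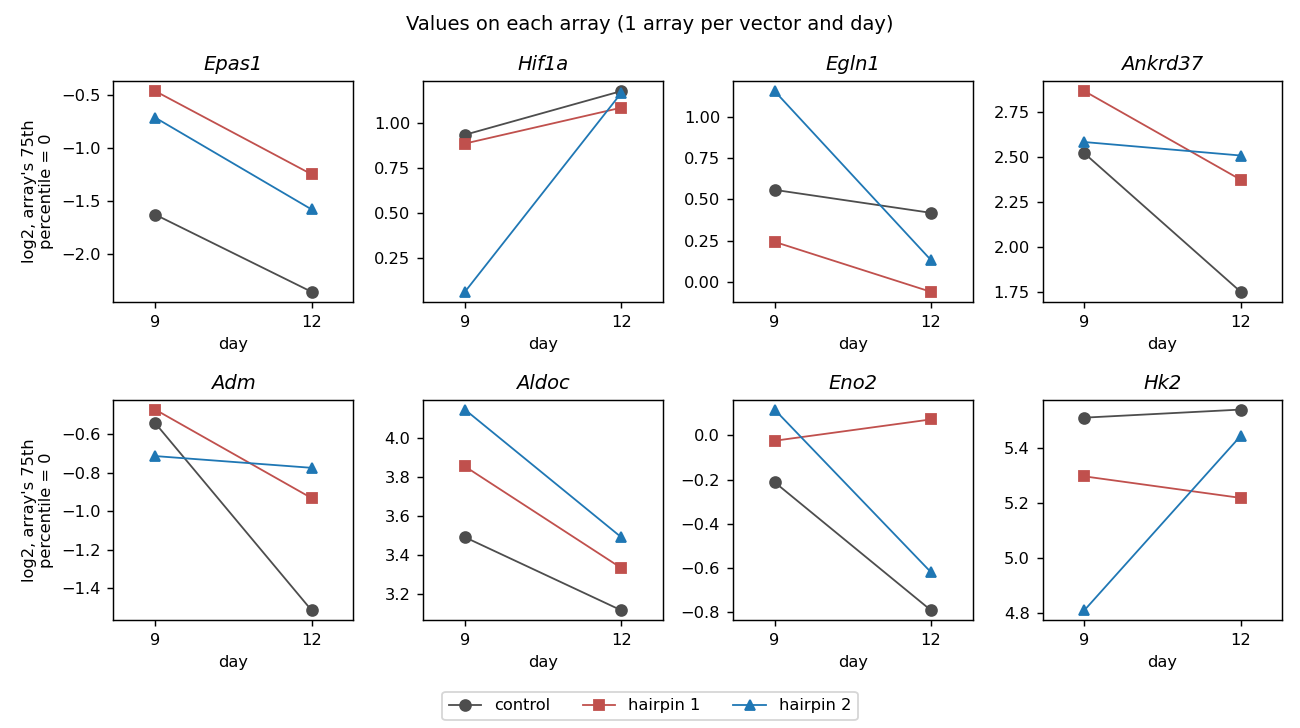
Log2 value on each array for 8 members, by day, with 1 array per vector and day (control circles, hairpin 1 squares, hairpin 2 triangles), each panel on its own axis. Epas1 lies lowest in the control on both days, and Hif1a and Hk2 are lowest with hairpin 2 at day 9.

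The knockdown difference at day 12 did not differ from that at day 9 for any member after adjustment, and 0% of genes passed. At an unadjusted p under 0.05 it was 0 members and 1.74% of genes. The largest differences of differences were 0.71 (SE 0.34) for Adm, 0.53 (SE 0.60) for Slc2a1 and 0.49 (SE 0.35) for Ankrd37, then -0.52 (SE 0.59) for Egln1, -0.36 (SE 0.44) for Eno1 and -0.32 (SE 0.44) for Pfkl. Without hairpin 2 of day 9 they were 0.05 for Slc2a1, -0.07 for Egln1, -0.09 for Eno1 and -0.03 for Pfkl, so the size of these 4 rested on that array. Without hairpin 1 of day 9 they were 1.01 for Slc2a1, -0.98 for Egln1, -0.63 for Eno1 and -0.61 for Pfkl. Slc2a1 was 0.28 with quantile normalization. Pfkl measured 4.29, 4.30 and 4.88 at day 9 and 4.18, 4.12 and 4.21 at day 12. Both hairpins were below the control at day 9 and above it at day 12 for 2 members, where 8.2% of genes were, and none was the other way round, where 5.7% were.

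Where a member had more than 1 kept probe, the brightest and second probe had the same sign for 12 of 18 members in the knockdown contrast and for 15 of 18 between the days. On hairpin 2 of day 9, relative to the control, the 2 probes were over 0.5 log2 units apart for 6 of the 18. One of them was Gpi1, at -0.31 on the brightest probe and 0.97 on the second. The spots of a 10-spot probe varied little within an array, with an SD of 0.0320 to 0.0797 for Gpi1.

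Other genes of the same pathways gave no call. Of 21 further glycolysis genes measured, 14 had a positive knockdown difference, with a median of 0.10. Hkdc1, a hexokinase-like gene, measured -2.48 and -2.44 in the controls, -0.22 and -1.18 on the day 9 hairpin arrays and -0.10 and -1.09 on those of day 12, a difference of 1.81 (SE 0.37, adjusted p = 0.256). Of 5 sperm isoforms, Ldhc, a lactate dehydrogenase of the testis, was lower in all 4 pairs, by a fitted -0.78 (SE 0.28, adjusted p = 0.448). Pdha2, the testis form of a pyruvate dehydrogenase subunit, had a day difference of 1.91 (SE 0.24, adjusted p = 0.0742). The medians of the knockdown difference were 0.02 over 28 further hypoxia genes, 0.05 over 27 genes of mitochondrial oxidation and 0.12 over 6 of the pentose phosphate pathway. Between the days, 14 of the 21 further glycolysis genes had a positive difference, with a median of 0.05, unlike the members. Of the 28 hypoxia genes 18 had a negative one, with a median of -0.06. The day medians were 0.02 for mitochondrial oxidation, -0.03 for the pentose phosphate pathway and 0.09 for the sperm isoforms. Mpc1, a mitochondrial pyruvate carrier, had 0.50 (SE 0.13, adjusted p = 0.357) and was higher in all 4 pairs.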

How the data were processed

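RNA from 6 sorted samples was hybridised to Agilent 1-colour mouse arrays. Spot intensity was deposited by the authors as Agilent Feature Extraction 9.1.3.1 output, background-subtracted and detrended per the file headers. A deposited quality score served only to match spots. The authors' table holds signals as a ratio to the median after normalization in GeneSifter, per the file headers, and was an alternative here. Intensities were taken to log2 and each array's 75th percentile over probes was set to 0. That percentile was first taken over spots. It was changed to probes after results had been seen, and both are compared below. A probe was kept where it was well above background on 2 or more arrays, which left 30214 probes, and the brightest probe stood for a gene. Names came from accessions for 22951 probes, from symbols or synonyms for 9755 and from the array for 8468.

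limma 3.58.1 (R 4.3.3) gave the differences, with day and knockdown as terms over all 6 arrays, or vector in place of knockdown, or 4 groups, with two-sided p-values and Benjamini-Hochberg adjustment over 20220 genes at 0.05. The code was tested on simulated data. After each day's mean was subtracted, arrays of one vector deviated together (r = 0.377, 0.543 and 0.262 for control, hairpin 1 and hairpin 2). Between vectors r was -0.339 to -0.0238, and the subtraction itself pushes these values below 0. The vector was also fitted as a replicate block, with a term for each hairpin. For the day contrast this pairs the arrays of a vector. For knockdown it takes the spread between hairpins out of the error, so it makes no allowance for that correlation. File names number the hairpins differently from the labels, which were followed. The members and lists were chosen with earlier results of these data known. Values on all arrays are given for members with the largest differences, up to 5 per direction for knockdown and day, and up to 3 for the other contrasts. Alternatives were normexp correction with an offset of 50, quantile normalization, other probe filters and summaries, the authors' table, a trended robust prior, and leaving out each array.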

Additional observations from a re-analysis of the deposited data

Results flagged for a closer look

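On its brightest probe Gpi1, the enzyme after hexokinase, was below the control with both hairpins at day 9, at -0.05 and -0.31. Both hairpins were above it at day 12. A second, dimmer probe was above the control in all 4 pairs, by 0.23 and 0.97 at day 9 and 0.55 and 0.11 at day 12. On the brightest probe the difference between the days was tested and did not pass, at 0.39 (SE 0.34, limma, adjusted p = 0.9998), from -0.18 at day 9 and 0.21 at day 12. Ldhb, a lactate dehydrogenase subunit, moved the same way, at 0.47 (SE 0.35, adjusted p = 0.9998), from -0.25 and 0.22.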

How the results depend on the processing

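No member passed the threshold in any of the 4 contrasts under any alternative run. The vector as a replicate block cannot move an estimate in this balanced design (0.99 for the Epas1 knockdown difference), only its error, and it changed no member's call. The percentile over spots, the version run first, gave member medians of 0.06, -0.16, 0.05 and 0.11 for knockdown, day, hairpin and the difference between days, and no result changed its call. The member median of the day contrast was -0.0783 with normexp. That of the hairpin contrast was -0.0145 with normexp, -0.0217 with quantile and -0.0305 with the mean of probes, and -0.0394 to 0.117 leaving out 1 array at a time. That of the difference between days was 0.188 with normexp, -0.0171 with quantile, 0.0474 with the mean of probes, and 0.0927 to 0.179 leaving out 1 array. Normexp moved the median of all genes to 0.11 for knockdown, 0.17 for hairpin and -0.11 for the difference between days. Pfkp reversed between hairpins with the mean of probes, at -0.10, as its 3 kept probes had 0.37, -0.17 and -0.51. Why these probes differ was not tested. The difference between days cannot be estimated without a control array. Signal over background limited no member, and 6 arrays limit the precision.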
